A study of Caenorhabditis elegans with 8 samples.

Results

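The superoxide dismutase family of Caenorhabditis elegans comprises sod-1, sod-2, sod-3, sod-4 and sod-5. These 5 genes were picked by their WormBase symbols from a table of 47087 loci, and each of them was among the 14358 loci that passed the filter on low values (a mean level over all 8 libraries of 1 FPKM or more, a unit that scales fragments by gene length and library depth). The data are poly(A) RNA sequencing of whole worms of the wild-type strain N2, grown from synchronized first-stage larvae on OP50 bacteria at 20 °C for 40 h, a point that the labels call young adult. The DL group (4 libraries) was kept under cycles of 12 h of light from an LED at 8000 lux and 12 h of darkness, and the NL group (4 libraries) in constant darkness. Each of 4 labelled batches holds 1 library of each group, named here DL 1 to DL 4 and NL 1 to NL 4 after the batch. The labels give neither the number of light cycles nor the hour of collection, and do not say whether the libraries came from separate cultures. Each p-value here therefore sets the difference between the groups against the variation between such libraries, which may be only technical.

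Superoxide dismutases convert superoxide, which leaks from the respiratory chain and is made by oxidases, into hydrogen peroxide and oxygen. Peroxide is then removed by catalases, peroxiredoxins and peroxidases. In the worm, sod-1 encodes the main cytosolic enzyme and sod-5 a minor cytosolic one, both with copper and zinc. The genes sod-2 and sod-3 encode manganese enzymes of the mitochondrial matrix, a main and a minor one, and sod-4 encodes copper and zinc enzymes that are secreted or held in the membrane. Transcripts of sod-3 and sod-5 are known to rise in dauer larvae and in mutants of the insulin receptor gene daf-2, through the transcription factor DAF-16, and sod-3 reporters are widely used to read DAF-16 activity.

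Depth, read back from the step sizes of low FPKM values, was 18628030 to 20394371 gene-assigned reads per library. The libraries differed in reproductive and adult transcripts. The summed level of 21 loci of sperm genes was 394 to 1411 FPKM in DL and 10.2 to 414 FPKM in NL, and the highest NL value was that of NL 3. Of these loci 19 were tested and all 19 had positive log2 changes, where 46.55% of all tested genes had negative ones. All 19 had an unadjusted limma p under 0.05, against 20.6% of all tested genes. The limma adjusted p was under 0.05 for 1 of them, against 0.703%. The groups did not overlap for 6 of the 19, against 9.24%. Of the 21, 8 were at 0 in at least 1 library, among them msp-10 and ssp-32, and msp genes have close copies that can share reads. The sum of 8 transcripts of adults (vitellogenins and the collagens col-19 and col-7) was 404 FPKM in DL 2 and 9.25 to 10.8 FPKM in the other DL libraries, against 196 FPKM in NL 3 and 0.676 to 3.81 FPKM in the other NL libraries. Markers of intestine (9 genes), muscle (5) and neurons (7) were above 0 in every library, and their sums overlapped between the groups. Log2 changes were however negative for 7 of 9 intestinal, all 5 muscle and 6 of 7 neuronal genes, against 46.55% of all tested genes. The intestinal sum (5552 to 9966 FPKM in DL, 7912 to 9099 in NL) was mostly asp-1 (3994 to 7461 FPKM in DL, 5914 to 7050 in NL). Its overlap therefore says little about the other genes.

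Over the 5 genes, transcripts of sod-3 fell in DL, and those of sod-5 were lower in every DL library than in any NL library without passing the test over all genes. The levels of sod-1, sod-2 and sod-4 overlapped between the groups. Tested as log2(FPKM + 1) with limma over all 14358 genes, 1 of the 5 genes had an adjusted p under 0.05, where 0.703% of all tested genes did, 0.411% as lower in DL and 0.293% as higher. The groups did not overlap for 2 of the 5, both lower in DL, where this held for 9.24% of all tested genes, for 4.8% as lower in DL and 4.44% as higher. Both of these 2 genes also had an unadjusted limma p under 0.05, a share that reached 20.6% over all tested genes. Without NL 3 and DL 2, the libraries with adult transcripts, limma called both sod-3 and sod-5, but it then called 10.4% of all tested genes. That fit also drops the NL library whose sperm sum lay within the DL range. The sperm sums left were 394 to 498 FPKM in DL and 10.2 to 49.9 FPKM in NL. Of the 19 tested sperm loci, 17 were then called higher in DL. The fit thus does not remove the difference in sperm transcripts between the groups but sets them fully apart. In whole animals, fewer cells that make a transcript and less of it per cell cannot be told apart.

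**Figure D1:**
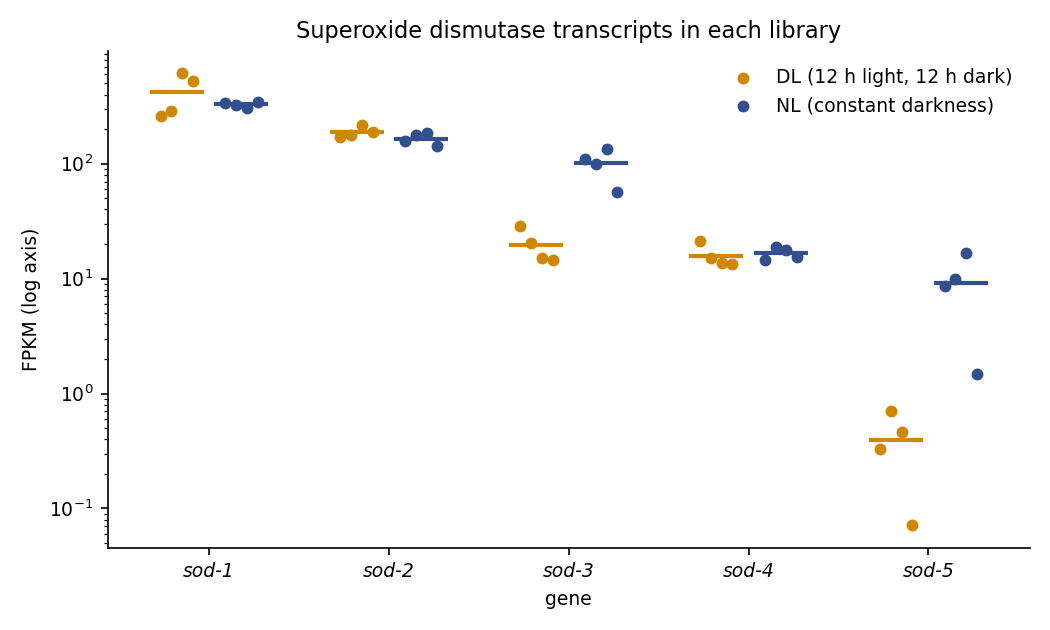
FPKM on a log axis of each superoxide dismutase gene (x axis) in the 4 DL libraries (orange, left) and the 4 NL libraries (blue, right), in the order of their numbers, with a bar at the group mean. The groups are apart for sod-3 (14.6 to 28.9 FPKM in DL, 57 to 134 in NL) and sod-5 (0.0715 to 0.699 in DL, 1.48 to 16.9 in NL) and overlap for the other genes.

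The main cytosolic enzyme gene, sod-1 (WBGene00004930), lies on the minus strand of chromosome II at 6972706 to 6973887 in WBcel235. It was the highest of the family in all 8 libraries. Its level was 261, 289, 612 and 525 FPKM in DL 1 to DL 4 and 339, 322, 306 and 344 FPKM in NL 1 to NL 4. The DL libraries thus lay on both sides of the NL libraries, with DL 1 and DL 2 below all of them and DL 3 and DL 4 above all of them. The means were 422 ± 173 FPKM in DL and 328 ± 17 FPKM in NL (SD, n = 4 each), and the spread of the DL libraries was 41.1% of their mean, against 5.18% in NL. The log2 change was 0.27 ± 0.28 (SE; limma adjusted p = 0.636), with a 95% interval of -0.35 to 0.89. Within the batches the difference in log2(FPKM + 1) was -0.37, -0.16, 0.996 and 0.61 in batches 1 to 4, so it was negative in 2 and positive in 2.

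The high sod-1 values of DL 3 and DL 4 were also seen on other scales. The depth that the deposited FPKM values were divided by was 1.16 times the recovered reads in DL 1 and 0.938 times in DL 3. How this depth was set is not described, so whether it puts the libraries on 1 scale cannot be told. With each library rescaled to the same sum, sod-1 stood at 326, 303, 521 and 484 FPKM in DL 1 to DL 4 and at 317 to 343 FPKM in NL. As RPM, recovered reads scaled to the library's own total, it stood at 218, 214, 413 and 367 in DL 1 to DL 4 and at 233 to 249 in NL. On both scales DL 3 and DL 4 were higher than every other library.

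The minor cytosolic gene, sod-5 (WBGene00007036; plus strand of chromosome II, 4417633 to 4419130), was the lowest of the family in all 8 libraries. It stood at 0.328, 0.699, 0.464 and 0.0715 FPKM in DL 1 to DL 4 and at 8.71, 9.92, 16.9 and 1.48 FPKM in NL 1 to NL 4. In reads these are 5, 10, 6 and 1 in DL and 116, 139, 237 and 20 in NL. Every DL library was below every NL library, but NL 4 was nearer to the DL range than to the other NL libraries. The single read of DL 4 gives an exact 95% Poisson interval of 0.00181 to 0.398 FPKM, which covers counting error only, as do the other intervals and floors on reads here. A floor of 3 reads in that library is 0.214 FPKM. The intervals of the nearest libraries, 0.335 to 1.29 FPKM in DL 2 and 0.904 to 2.29 FPKM in NL 4, overlapped, so the distance between these libraries did not exceed counting error.

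The group means of sod-5 were 0.391 ± 0.262 FPKM in DL and 9.25 ± 6.31 FPKM in NL (SD, n = 4 each), so that the DL mean was 0.0422 times the NL mean. In all 4 batches the DL library was lower than the NL library. The log2 change in FPKM + 1 was -2.59 ± 0.53 (SE; limma adjusted p = 0.0645, unadjusted p = 0.000831), which did not pass the threshold. A pseudocount of 1 FPKM is larger than every DL value of this gene and so understates its change. With a pseudocount of 0.1 FPKM the log2 change was -4.03 ± 0.76 (limma adjusted p = 0.0562), and with voom on the recovered reads -4.36 ± 1.17 (limma adjusted p = 0.0952). The call turned on the library: without NL 3 the limma adjusted p was 0.027 and without NL 4 it was 0.00365, while without any other single library it was 0.102 to 0.217. It also passed under quantile normalization (limma adjusted p = 0.0267) and with each library centred on its median gene (limma adjusted p = 0.0467), and it did not with the batch as a block (limma adjusted p = 0.104).

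The main mitochondrial gene, sod-2 (WBGene00004931; plus strand of chromosome I, 8434550 to 8435807), was second in level in all 8 libraries. It stood at 170, 177, 219 and 190 FPKM in DL 1 to DL 4 and at 157, 178, 183 and 143 FPKM in NL 1 to NL 4. The ranges overlapped, and DL 1 and DL 2 lay inside the NL range while DL 3 and DL 4 lay above it. The means were 189 ± 21.6 FPKM in DL and 165 ± 18.9 FPKM in NL (SD, n = 4 each). The log2 change of 0.20 ± 0.14 (SE) did not pass (limma adjusted p = 0.49), and its 95% interval was -0.13 to 0.52. No interval of the other genes was narrower.

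The minor mitochondrial gene, sod-3 (WBGene00004932; plus strand of chromosome X, 17092753 to 17094306), fell in DL. It stood at 28.9, 20.4, 15.2 and 14.6 FPKM in DL 1 to DL 4 and at 110, 100.4, 134 and 57 FPKM in NL 1 to NL 4. Each DL library was below each NL library, with NL 4 the lowest of the NL libraries, as it was for sod-5. These values rest on 245 to 550 reads in DL and on 961 to 2355 reads in NL. The highest DL library had an exact 95% Poisson interval of 26.5 to 31.4 FPKM and the lowest NL library one of 53.4 to 60.7 FPKM, so the distance between the groups was larger than the counting error of the nearest libraries.

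The means of sod-3 were 19.8 ± 6.62 FPKM in DL and 101 ± 32.4 FPKM in NL (SD, n = 4 each), so that the DL mean was 0.197 times the NL mean. The log2 change was -2.27 ± 0.29 (SE; limma adjusted p = 0.0155), the 24th smallest p of the 14358 tested genes, with a 95% interval of -2.94 to -1.61. Within batches 1 to 4 the difference in log2(FPKM + 1) was -1.90, -2.24, -3.06 and -1.89. NL 3, whose sum of sperm transcripts lay within the DL range, had the highest sod-3 level of all libraries, and likewise of sod-5. The part of the sperm and adult transcripts in the change of sod-3 was not tested. Without NL 3 and DL 2 the log2 change was -2.15 ± 0.34 (limma adjusted p = 0.00902), and without each of the 8 libraries in turn it was -2.52 to -2.11. The call was however lost, with an adjusted p above 0.05, without DL 3 (0.0718), DL 4 (0.0771), NL 1 (0.0704) or NL 2 (0.0787). These are limma fits in which 19, 15, 9 and 9 genes were called over all genes.

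The gene of the secreted and membrane-bound enzymes, sod-4 (WBGene00004933; minus strand of chromosome III, 9496884 to 9500375), stood at 21.3, 15.1, 13.6 and 13.4 FPKM in DL 1 to DL 4. In NL 1 to NL 4 it stood at 14.6, 18.8, 17.6 and 15.4 FPKM. DL 1 was the highest of all 8 libraries and DL 3 and DL 4 were the lowest. The means were 15.8 ± 3.73 FPKM in DL and 16.6 ± 1.97 FPKM in NL (SD, n = 4 each), and the log2 change of -0.08 ± 0.17 (SE) did not pass (limma adjusted p = 0.835; 95% interval -0.48 to 0.31). Its values are per whole gene, so the 2 coding forms, of 176 and 221 residues, are not separated.

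**Figure D2:**
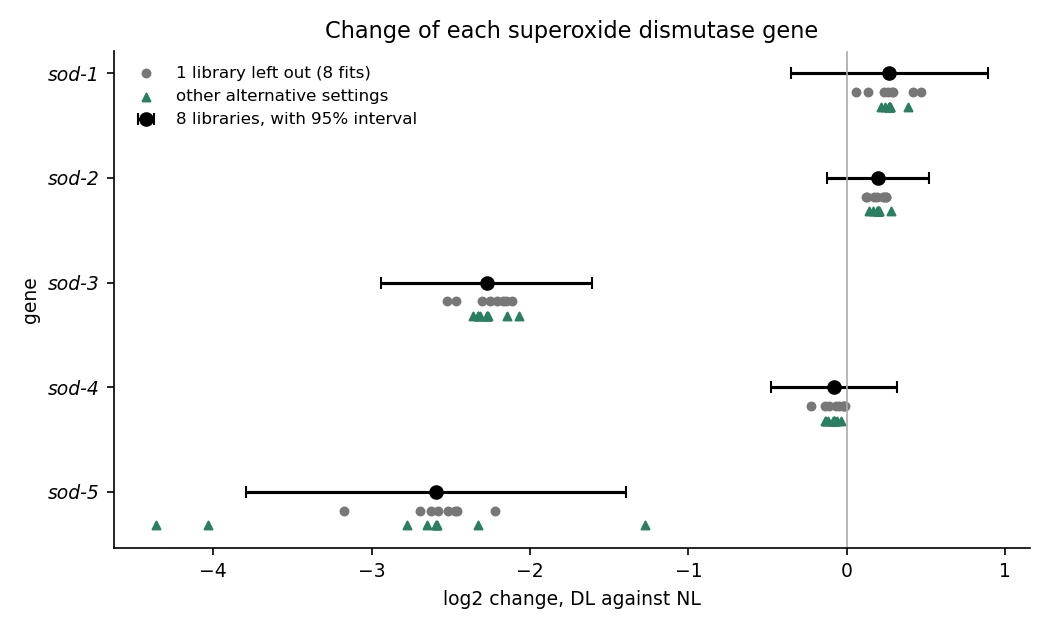
Log2 change in DL against NL (x axis) of each superoxide dismutase gene (y axis), as a black point with its 95% interval, above the fits that leave out 1 library each (grey points) and the other alternative settings (green triangles). Intervals of sod-1, sod-2 and sod-4 span 0, those of sod-3 (-2.94 to -1.61) and sod-5 (-3.79 to -1.39) do not, and the settings move sod-5 from -4.36 to -1.28.

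Set by level, per length of gene, the order of the means was sod-1, sod-2, sod-3, sod-4 and sod-5 in both groups, and all 8 libraries kept this order one by one. The distances between neighbours differed. In DL the ranges of sod-3 and sod-4 overlapped (14.6 to 28.9 and 13.4 to 21.3 FPKM), and the mean of sod-3 was 1.25 times that of sod-4. In NL sod-3 stood apart from sod-4, at 6.05 times its mean, while the ranges of sod-4 and sod-5 overlapped (14.6 to 18.8 and 1.48 to 16.9 FPKM). Next to sod-2, the sod-3 mean lay 9.57 times lower in DL and 1.64 times lower in NL. Among all tested genes, the mean level of sod-3 was at percentile 65.4 in DL and 91.8 in NL, and that of sod-5 at percentile 0.627 in DL and 45.4 in NL. Tested genes average 1 FPKM or more over the 8 libraries, which sod-5 did only through NL (means of 0.391 FPKM in DL and 9.25 in NL). Its place near the bottom in DL thus follows from the filter and is no separate result. For sod-1, sod-2 and sod-4 these percentiles were 97.8, 95.3 and 59.0 in DL and 97.2, 94.8 and 61.6 in NL.

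The makeup of the mitochondrial pair shifted with sod-3. Of the summed FPKM of sod-2 and sod-3, sod-3 held 14.5%, 10.3%, 6.48% and 7.12% in DL 1 to DL 4 and 41.3%, 36.1%, 42.3% and 28.5% in NL 1 to NL 4. These shares did not overlap and do not depend on how the libraries are scaled. The sum of the pair was 209 ± 17.1 FPKM in DL and 266 ± 49.1 FPKM in NL (SD, n = 4 each), with NL 4, at 199.7 FPKM, inside the DL range of 197 to 234. In the cytosolic pair, sod-5 held 0.125%, 0.242%, 0.0758% and 0.0136% in DL 1 to DL 4 and 2.50%, 2.99%, 5.22% and 0.429% in NL 1 to NL 4. The summed level of all 5 genes was 483, 502, 860 and 743 FPKM in DL 1 to DL 4 and 629, 629, 659 and 560 FPKM in NL 1 to NL 4, so that the groups overlapped, and sod-1 made up 54.2% to 71.1% of it in DL and 46.5% to 61.3% in NL. Sums and shares over the family are given without a test.

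**Figure D3:**
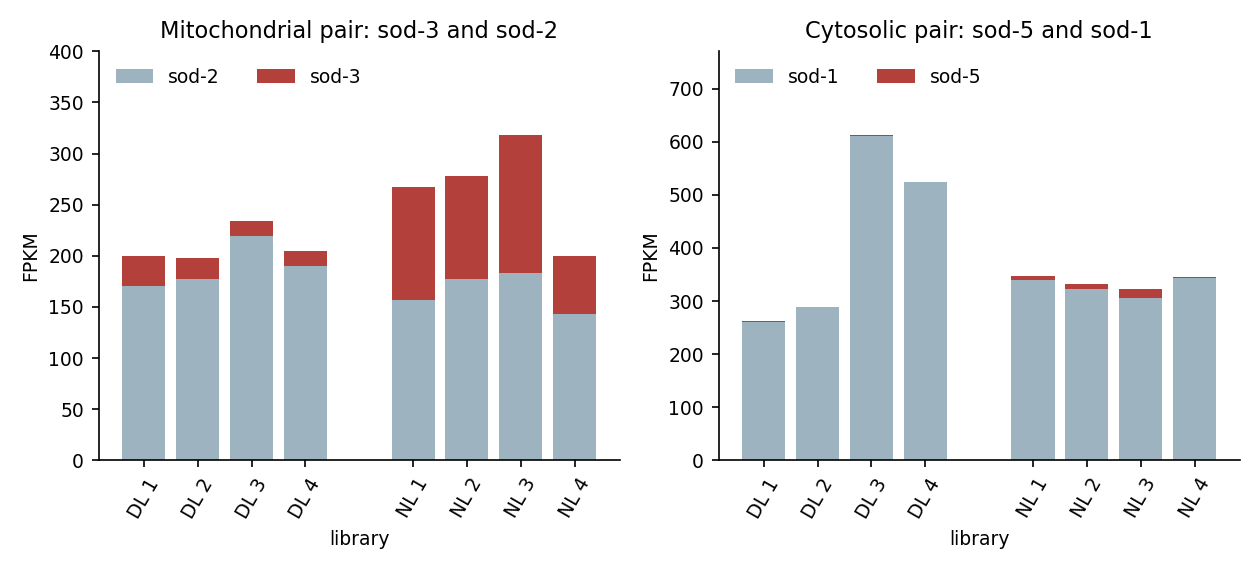
Stacked FPKM of the mitochondrial pair (left: sod-2 grey, sod-3 red) and of the cytosolic pair (right: sod-1 grey, sod-5 red) in each library, DL 1 to DL 4 left of NL 1 to NL 4. The red part is 6.48% to 14.5% of the mitochondrial bars in DL and 28.5% to 42.3% in NL, and the cytosolic bars of DL 3 and DL 4 are the tallest.

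Gene structure in the annotation set the family into the same pairs. The coding sequence of sod-3 is split in 5 parts of 53, 173, 137, 243 and 48 bases, and that of sod-2 in 5 parts of 53, 173, 137, 252 and 48 bases, so that 4 of 5 parts are equal in length. The 2 genes encode 218 (sod-3) and 221 (sod-2) residues. Likewise sod-5 (178 residues) and the longer form of sod-1 (180 residues) have 4 of 5 parts of equal length, 84, 159, 154 and 95 bases, and differ in the first, of 42 bases in sod-5 and 48 in sod-1. Coding sequence of sod-4 is split in 6 parts in each of its 4 transcripts, and its 2 forms differ in the last one, of 8 or 143 bases. The gene pairs thus have the same layout, while the sod-3 and sod-5 levels were apart between the groups and those of sod-2 and sod-1 overlapped. The likeness of the gene pairs in sequence was not analysed here, so reads that could be placed on either gene of a pair are an uncertainty of these values.

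Neighbouring genes share bases with 4 of the 5 genes, each on the other strand, and the library kit named in the labels does not mark strand. In sod-3, 65 of 881 exon bases (7.38%) also belong to exons of C08A9.3, which stood at 0 to 0.0708 FPKM in DL and at 0.0226 to 0.348 FPKM in NL, and 24 bases (2.72%) to exons of lido-1, at 2.03 to 2.82 FPKM in DL and 1.83 to 3.47 FPKM in NL. Both neighbours were below the lowest sod-3 level of 14.6 FPKM in all libraries. In sod-4, 175 of 1306 exon bases (13.4%) are shared with ctr-9, a subunit gene of the Paf1 transcription elongation complex, at 15.5 to 22 FPKM in DL and 16 to 20.4 FPKM in NL, which is about the level of sod-4. In sod-2, 21 bases (2.62%) are shared with dpt-1, and in sod-1, 85 bases (11.8%) with the non-coding gene C15F1.13, which was at 0 in all libraries but NL 4. No annotated gene overlaps sod-5.

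The genes whose profile over the 8 libraries lay nearest to that of sod-3 were comt-4, lys-4, clec-82, clec-218 and nspb-8. Nearness is the root mean square difference between log2(FPKM + 1) values centred on each gene's mean, and was taken over the 6280 tested genes that had a symbol and averaged 5 FPKM or more. It was 0.269 for comt-4 (a catechol O-methyltransferase family gene), 0.298 for lys-4 (a lysozyme gene), 0.318 for clec-82 and 0.365 for clec-218 (C-type lectin domain genes) and 0.392 for nspb-8 (a nematode-specific peptide family gene), where sod-3 itself varied by 1.21 about its mean. In DL, comt-4 was at 0.335 to 1.48 FPKM and clec-82 at 1.42 to 2.15 FPKM, against means of 10.2 FPKM for each in NL. These DL values lie near the pseudocount of 1 FPKM, which therefore weighs on the distance. Both genes, and clec-218 (mean of 3.91 FPKM in DL), averaged 5 FPKM only through NL. Levels of lys-4 were 131, 70.4, 43.6 and 61.5 FPKM in DL 1 to DL 4 and 280, 279, 331 and 208 FPKM in NL 1 to NL 4. Like sod-3, lys-4 was highest in DL 1 among the DL libraries, highest in NL 3 and lowest in NL 4 among the NL libraries. Its choice by likeness to sod-3 makes such a shared order likely. All 5 genes were lower in DL with a limma adjusted p under 0.05 (0.0048 for nspb-8 to 0.0357 for clec-218), which their choice by likeness to sod-3 makes likely. Only nspb-8 among them was still called with the batch as a block (limma adjusted p = 0.0404) and without each of the 8 libraries in turn. The calls of comt-4, lys-4, clec-82 and clec-218 were also lost without a filter (limma adjusted p = 0.0663 to 0.0754). Those of lys-4 and clec-218 were lost on rescaling to the same sum (limma adjusted p = 0.0659 and 0.063). The call of comt-4 was lost with voom on the recovered reads as well (limma adjusted p = 0.0587).

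Nearest to sod-5 were lipl-1, a lipase gene (0.395), and ftn-1, a gene of ferritin, the iron store (0.43), where sod-5 varied by 1.51. Levels of ftn-1 were 7.18, 11.7, 4.60 and 5.33 FPKM in DL 1 to DL 4 and 72.5, 75.7, 87.6 and 26.7 FPKM in NL 1 to NL 4. Both sod-5 and ftn-1 had their highest DL value in DL 2, their highest NL value in NL 3 and their lowest NL value in NL 4. The choice of ftn-1 and lipl-1 by likeness to sod-5 makes shared orders likely. For sod-5 the order within DL rests on 1 to 10 reads. Its 95% Poisson intervals in DL 2 (0.335 to 1.29 FPKM) and DL 3 (0.170 to 1.01 FPKM) overlapped, so that order is within counting error. Levels of lipl-1 were 2.94 to 5.43 FPKM in DL and 14.2 to 70.5 FPKM in NL, with NL 4 again the lowest of its group. With a DL mean of 4.22 FPKM, lipl-1 averaged 5 FPKM only through NL. For sod-1 the nearest profiles were those of lec-9, a galectin gene (0.106), and his-35, a histone H2A gene with close relatives that can share its reads (0.116). In lec-9 too, DL 3 and DL 4 (876 and 775 FPKM) were above all 6 other libraries (424 to 576 FPKM), which its choice by likeness to sod-1 makes likely. The nearest to sod-2 were ndab-1 (0.0635) and rbm-42 (0.0662), and to sod-4 pak-2, a p21-activated kinase gene (0.0631), and vps-51, a vesicle tethering gene (0.0923). The sod-2 and sod-4 profiles varied by only 0.172 and 0.21 about their means.

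**Figure D4:**
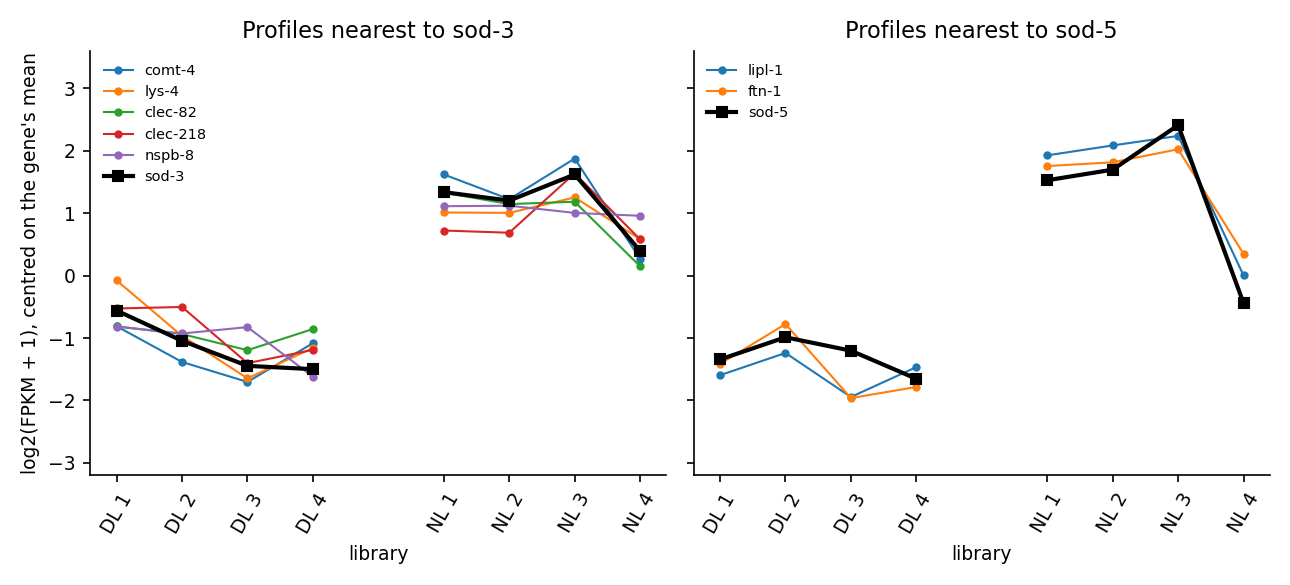
log2(FPKM + 1), centred on each gene's mean over the 8 libraries (y axis), for sod-3 (left, black) with its 5 nearest genes and for sod-5 (right, black) with its 2 nearest, in DL 1 to DL 4 and NL 1 to NL 4. Each profile is low in DL and high in NL. NL 4 is the lowest NL library in all 9 profiles. The nearest genes were chosen for their likeness, so the shared order is no separate result.

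Genes that act beside the superoxide dismutases were taken as 5 lists and are described by counts and medians, beside a median log2 change of 0.03 over all tested genes. Over all of these, 46.55% of log2 changes were negative, 0.703% of genes were called, 20.6% had an unadjusted limma p under 0.05 and 9.24% had groups that did not overlap. In the fit without NL 3 and DL 2 the share called was 10.4%. Of 14 genes that remove peroxide 12 were tested and limma called 0, with 4 at an unadjusted p under 0.05, 6 positive and 6 negative log2 changes and a median of 0.04. The peroxiredoxin gene prdx-2, of the cytosol, stood at 1575 ± 661 FPKM in DL and 843 ± 178 FPKM in NL (SD, n = 4 each; log2 change 0.81 ± 0.34, limma adjusted p = 0.222). Its values were 752, 1344, 2209 and 1994 FPKM in DL 1 to DL 4, so DL 3 and DL 4 were highest, as in sod-1. The mitochondrial prdx-3 stood at 365 ± 52.4 FPKM in DL and 348 ± 63.8 FPKM in NL (limma adjusted p = 0.856). The groups did not overlap for 2 of the 12, gpx-3 and gpx-5 of the glutathione peroxidase family, both lower in DL. Without NL 3 and DL 2, limma called 1 of the 12, gpx-5, as lower, against 10.4% of all tested genes.

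A list of superoxide sources and related genes (respiratory chain complexes, ubiquinone synthesis, an uncoupling protein and the dual oxidases) gave no call. Of the dual oxidases bli-3 was tested and duox-2 was not. The groups did not overlap for 1 of the 13 tested, against 9.24% of all tested genes. It was the uncoupling protein gene ucp-4, at 9.23 to 12.5 FPKM in DL and 7.96 to 8.99 FPKM in NL (limma adjusted p = 0.242). Of 13 tested limma called 0, with 1 at an unadjusted p under 0.05, 11 negative and 2 positive log2 changes and a median of -0.11. The highest of them, isp-1 of complex III, stood at 702 ± 96.3 FPKM in DL and 770 ± 81.2 FPKM in NL (limma adjusted p = 0.689), and cyc-1 of the same complex at 451 ± 87.1 FPKM in DL and 450.2 ± 52.6 FPKM in NL (limma adjusted p = 0.982). Of 7 genes of copper and manganese supply 6 were tested, with 5 positive and 1 negative log2 changes, 3 at an unadjusted p under 0.05 and a median of 0.24, and limma called 1. The negative one was smf-3, a metal transporter gene, at 2.02 ± 0.491 FPKM in DL and 4.71 ± 1.6 FPKM in NL (SD, n = 4 each; log2 change -0.89 ± 0.25, limma adjusted p = 0.105). The called one was chca-1, a copper transporter family gene, which rose to 55.9, 79.7, 77.1 and 86.9 FPKM in DL 1 to DL 4, against 26.2, 22.3, 27 and 45.6 FPKM in NL 1 to NL 4 (log2 change 1.31 ± 0.23, limma adjusted p = 0.0477). The groups did not overlap. That call was lost with the batch as a block (limma adjusted p = 0.0843) and without any 1 of DL 1 to DL 4, NL 1 or NL 2 (limma adjusted p = 0.0651 to 0.168). It also missed the threshold with a pseudocount of 0.1 FPKM, without a filter and centred on the median gene (limma adjusted p = 0.0504 to 0.0837). The copper chaperone gene cuc-1 stood at 178 ± 53 FPKM in DL and 109 ± 48.3 FPKM in NL (limma adjusted p = 0.234), and cutc-1 at 28.9 ± 3.51 FPKM in DL and 23.2 ± 6.21 FPKM in NL (limma adjusted p = 0.386).

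Of 20 genes of the insulin pathway and of factors known to act on sod-3, limma called 0 of 20 tested, with 7 at an unadjusted p under 0.05, 13 negative and 7 positive log2 changes and a median of -0.16. The groups did not overlap for 4 of the 20, against 9.24% of all tested genes: daf-16, hif-1 and aak-2 were lower in DL and daf-18 was higher. The levels of daf-16 were 33.8 to 42.9 FPKM in DL and 47.8 to 55.1 FPKM in NL (log2 change -0.50 ± 0.13, limma adjusted p = 0.0991), and those of hif-1, the hypoxia factor gene, 84.2 to 93.2 FPKM in DL and 113 to 131 FPKM in NL (log2 change -0.49 ± 0.12, limma adjusted p = 0.0893). Those of daf-2, the insulin receptor gene, were 9.78 to 13.7 FPKM in DL and 10.3 to 25 FPKM in NL (limma adjusted p = 0.402). The highest genes of the list, the 14-3-3 genes par-5 and ftt-2, stood at 622 ± 143 and 386 ± 96.1 FPKM in DL, against 587 ± 18.7 and 466 ± 47.5 FPKM in NL (limma adjusted p = 0.901 for par-5 and 0.46 for ftt-2). Without NL 3 and DL 2, limma called 2 of the 20, the kinase genes akt-1 and akt-2, as lower, which is about the 10.4% of all tested genes called in that fit.

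Of 20 loci of other genes that respond to DAF-16, which include ctl-1 and ctl-2 of the peroxide list, 19 were tested, 15 with negative and 4 with positive log2 changes, and the median was -0.46. Most of them are known to be induced by DAF-16, but ins-7 (log2 change 0.69 ± 0.36, limma adjusted p = 0.318) and daf-15 (-0.02 ± 0.18, limma adjusted p = 0.957) are known to be repressed by it, so the count of signs mixes both kinds of gene. Limma called 1, ftn-1, which fell (log2 change -2.97 ± 0.39, limma adjusted p = 0.0165), and 3 of the 19 had an unadjusted p under 0.05, against 20.6% of all tested genes. In the left-out fits ftn-1 passed only without DL 2, NL 3 or NL 4, and without any other library its limma adjusted p was 0.0538 to 0.0888. The groups did not overlap for 1 of the 19, ftn-1 itself, against 9.24% of all tested genes. The glyoxylate cycle gene icl-1 stood at 574 ± 66 FPKM in DL and 1269 ± 789 FPKM in NL (limma adjusted p = 0.267), with 1735 and 2138 FPKM in NL 1 and NL 2 and 583 and 618 FPKM in NL 3 and NL 4. The level of gpd-2 was 830 ± 204 FPKM in DL and 814 ± 225 FPKM in NL (limma adjusted p = 0.951).

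**Figure D5:**
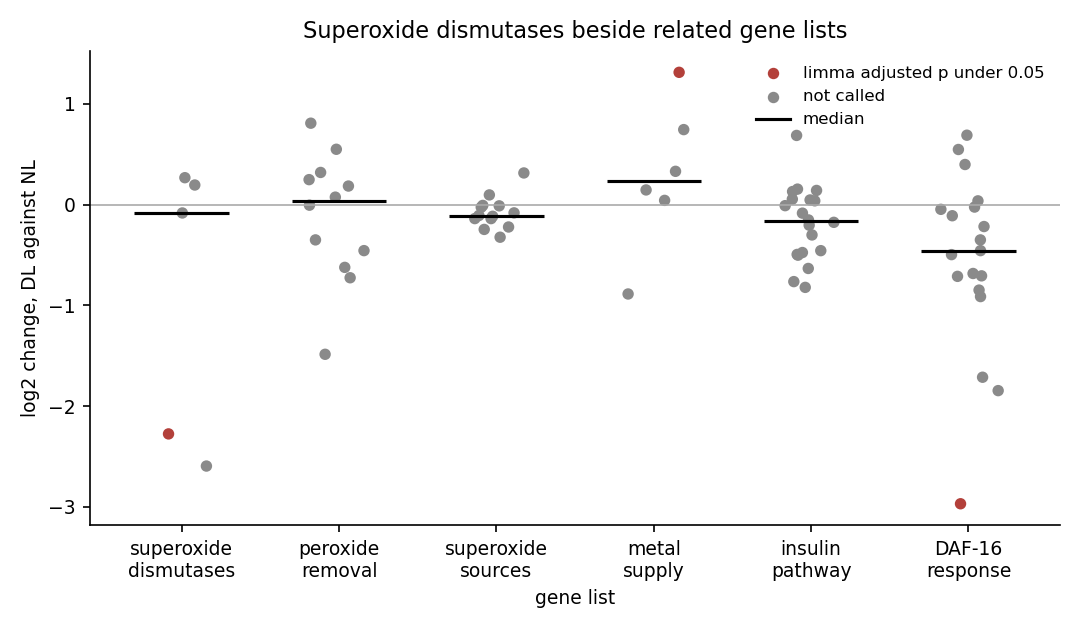
Log2 change in DL against NL (y axis) of each tested gene of 6 groups (x axis): the superoxide dismutases and 5 lists of genes that act beside them. Red points have a limma adjusted p under 0.05 (sod-3, chca-1 and ftn-1), grey points do not, and black bars are medians (-0.08 for the superoxide dismutases, 0.04, -0.11, 0.24, -0.16 and -0.46 for the lists).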

How the data were processed

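The authors deposited FPKM values, 1 column per library for 8 libraries, per the file headers. HISAT2, HTSeq and WBcel235 are named in the submitters' processing notes, with no versions there. None of the sources used here gives their annotation, strand setting or filters. Of 46934 WormBase IDs 44113 matched a symbol. Gene positions and exon lengths came from the annotation of WBcel235 (Ensembl release 115).

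Values were tested as log2(FPKM + 1), which understates changes of low genes, on 14358 loci with a mean of at least 1 FPKM, with limma 3.58.1 (R 4.3.3; two-sided, intensity trend, Benjamini-Hochberg over all tested loci, threshold 0.05). With exon lengths, 22881 of 22985 genes (99.55%) gave whole reads in all libraries within 0.05 read; these served depth, counting intervals and 1 alternative. How the authors set the depth that scales the FPKM values is not described (0.938 to 1.16 times these reads).

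By the labels, libraries of the same number belong to the same batch. They were treated as pairs only in the differences within batches and in the fit with the batch as a block. Deviations from the group means correlated at -0.007, -0.188, -0.318 and 0.19 in batches 1 to 4. The fit without the block, which leaves the pairs out, gave the values in the text unless another setting is named.

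Members, lists and alternatives were chosen with earlier results of these data known. Named genes are the 5 members, their overlapping genes, list members that passed (up to 6 a list) with the 2 highest that did not, and the nearest profiles (5 for sod-3, 2 for each other gene). The genes gpx-3, gpx-5, bli-3, duox-2, ucp-4, smf-3, akt-1, akt-2, daf-16, hif-1, aak-2, daf-18, daf-2, ins-7 and daf-15 were named after their values were seen. The listed symbols dod-8 and tni-2 matched no locus, and hsp-16.1 and ssp-9 matched 2 each. The fitting steps were tested on simulated data. Python 3.11.15, pandas 2.3.3, numpy 2.4.6, scipy 1.17.1 and matplotlib 3.10.9 made tables and figures.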

Additional observations from a re-analysis of the deposited data

Results flagged for a closer look

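None of the 10 groups of 4 values of the superoxide dismutase genes held a library set far apart from the other 3 by Dixon's ratio of gap to range. Over the 80 groups examined, which include sums, shares and the other named genes, 4 libraries were set apart, and chance flags about 1 in 20 groups. In NL 3, clec-218 stood at 26.6 FPKM (12.2 to 13.6 in the other NL libraries), cyc-1 at 372 FPKM (470 to 481 in the others) and his-35 at 105 FPKM (129 to 133 in the others). In DL 3, rbm-42 stood at 49.5 FPKM (41 to 42.4 in the other DL libraries).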

How the results depend on the processing

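In 18 alternative settings the log2 changes of the 5 superoxide dismutase genes kept their signs. With the batch as a replicate block sod-3 was -2.27 ± 0.23 (limma adjusted p = 0.0461), and the block changed no call of a superoxide dismutase. The call of sod-5 was gained at -2.78 under quantile normalization, at -2.65 centred on the median gene and at -2.33 without NL 3 and DL 2; leaving out 1 library gave -3.17 to -2.22. For sod-3, leaving out 1 library gave -2.52 to -2.11. With a filter of 5 FPKM sod-5 was not tested. Counts of called genes were 101 (42 higher, 59 lower) and moved to 33 (16 and 17) without a filter, 216 (67 and 149) with quantile normalization, 25 (13 and 12) with the block and 1493 (1225 and 268) without NL 3 and DL 2. Lower calls were 32 on rescaling to the same sum and 106 centred on the median gene. Leaving out 1 library gave 9 to 1561 calls (4 to 1175 higher, 5 to 386 lower), lowest without NL 1 or NL 2 and highest without NL 3. The cause was not tested. Values turned sign for genes with changes near 0: cyc-1 (0.0271 with quantile normalization), gpd-2 (-0.0173 centred on the median gene, -0.0394 without NL 3 and DL 2) and par-5 (-0.00013 centred on the median gene). With 1 library left out, cyc-1 ranged from -0.10 to 0.11, gpd-2 from -0.11 to 0.16, pak-2 from -0.17 to 0.0592, par-5 from -0.0625 to 0.20, prdx-3 from -0.00074 to 0.18 and vps-51 from -0.22 to 0.0085. At 1 to 10 reads, depth limits sod-5 in DL.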
